A study of Homo sapiens with 6 samples.

Results

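The caveolin and cavin genes were examined in A673/TR/shEF cells, an Ewing sarcoma cell line in which EWSR1::FLI1 can be knocked down. The 7 genes were taken by their gene symbols, namely the caveolins CAV1, CAV2 and CAV3, the cavins PTRF (cavin 1), SDPR (cavin 2) and PRKCDBP (cavin 3), and EHD2. All 7 were found among the 26364 gene symbols of the RNAseq data, and 5 of them passed the filter on expression. The A673 line carries the EWSR1::FLI1 fusion, and all 6 samples carried the same tetracycline repressor and the same inducible shRNA against the fusion mRNA. The 3 EWSR1::FLI1 high samples were left untreated, and the 3 EWSR1::FLI1 low samples were cultured for 72 h in doxycycline at 1 µg/mL, so an effect of doxycycline itself cannot be told apart from the knockdown. The samples are described in one place as independent clones and in another as numbered experiments, so the p-values measure only the spread between these samples, which may be technical.

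Caveolae are small flask-shaped pits of the plasma membrane that take part in endocytosis, lipid handling, signalling and the buffering of membrane tension. Caveolins are the integral membrane proteins of the pit, and cavins are cytosolic proteins that coat it. In most cells a caveola needs both CAV1 and cavin 1, while CAV3 takes the place of CAV1 in muscle. EHD2 is an ATPase that sits at the neck of the pit and holds it at the surface. EWSR1::FLI1 binds GGAA motifs.

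Expression was given as FPKM, a read count per kilobase of gene length and per scaled library, so levels can be compared between genes. Between 6980361 and 16658933 reads per library lay on genes. FLI1, which gives the 3′ part of the targeted mRNA, was at 11.3, 12.7 and 14.2 FPKM without doxycycline and at 2.91, 4.29 and 3.68 FPKM with it (log2 fold change -1.57, adjusted p = 0.000676, limma). All 5 Ewing sarcoma markers examined (CD99, NKX2-2, NR0B1, STEAP1 and LIPI) were detected in every library, and their summed level was 512 to 525 FPKM without and 155 to 180 FPKM with doxycycline. The EWSR1::FLI1 low libraries differed more among themselves than the untreated ones did. The chi-square of the reads per degree of freedom was 16.2 between EWSR1::FLI1 low replicates 2 and 3. It was 25.7 and 24.2 between replicate 1 and these 2, and 3.42 to 4.97 between untreated libraries. EWSR1::FLI1 low replicate 1 stood apart from the other libraries. Its FPKM values summed to 255956, against 334614 to 366060 in the other 5 libraries, and it had the lowest values of its group for CAV1, CAV2, PTRF and EHD2. For the genes described from here on, the value without it is given where leaving it out changed a call. Where 3 values are listed for a group, they are replicates 1, 2 and 3 in that order.

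CAV1 and CAV2, the caveolins of non-muscle cells, decreased upon EWSR1::FLI1 knockdown, while PTRF and EHD2 increased. These 4 genes were called, which means an adjusted p under 0.01 with limma on log2(FPKM + 1), out of the 5 that could be tested. Of all 15504 genes tested, 7.88% were called, 4.51% as higher and 3.37% as lower. Each of the 5 tested genes had groups that did not overlap, 3 of them higher and 2 lower in EWSR1::FLI1 low cells. SDPR, among the 3 higher, passed the filter on expression only through the EWSR1::FLI1 low libraries, so its direction adds no support. Groups without overlap were found for 41.1% of all tested genes, 17.5% being higher and 23.6% lower, so the lack of overlap alone was common. The log2 fold changes of the 5 tested genes ran from -1.44 to 2.06, and the median of all tested genes was -0.05.

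**Figure D1:**
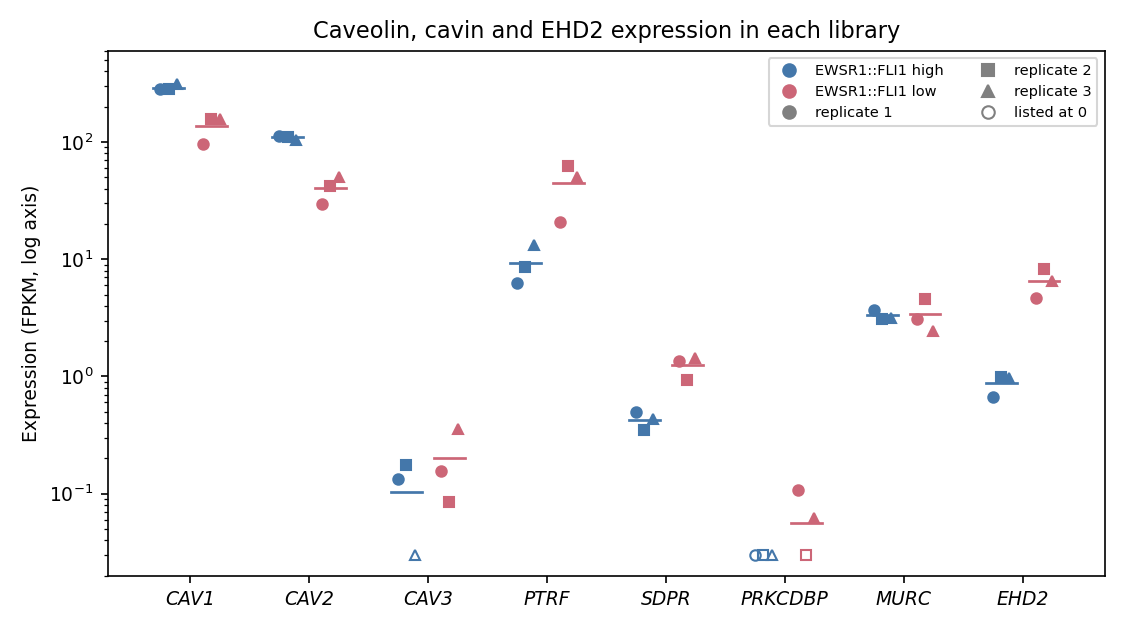
Expression in FPKM on a log axis of the 7 genes and of MURC (cavin 4) in each of the 6 libraries, with blue for EWSR1::FLI1 high, red for EWSR1::FLI1 low, marker shapes for replicates 1 to 3, horizontal lines for group means and open markers for values listed at 0. CAV1 and CAV2 lie lower in the red libraries, and PTRF, SDPR and EHD2 lie higher, while MURC overlaps at 2.47 to 4.61 FPKM.

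CAV1 encodes caveolin 1, the main structural protein of caveolae outside muscle. The gene (ENSG00000105974) lies on the plus strand of chromosome 7 from 116165048 to 116201233 (GRCh37), and its main transcript has 3 exons. CAV1 was at 280, 282 and 310 FPKM without doxycycline and at 97.1, 156 and 158 FPKM with it. Every EWSR1::FLI1 low library was thus well below every EWSR1::FLI1 high library, and replicate 1 was the lowest of its group. The group means were 291 ± 16.9 and 137 ± 34.7 FPKM (SD, n = 3 each), so that 47.1% of the untreated level was left. With limma, CAV1 changed by -1.11 on the log2 scale (standard error 0.21), and its adjusted p was 0.00828. Without EWSR1::FLI1 low replicate 1, CAV1 still fell by 0.88 on the log2 scale, with an adjusted p of 0.00104 (limma). Leaving out any one of the other 5 libraries raised the adjusted p (limma) above 0.01: it was 0.0298, 0.0448 and 0.0481 without EWSR1::FLI1 high replicates 1, 2 and 3, and 0.0117 and 0.0129 without EWSR1::FLI1 low replicates 2 and 3.

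CAV1 remained an abundant transcript after knockdown. Between 3157 and 10766 reads lay on it in each library. By FPKM it ranked between 97 and 120 among all 26364 symbols in EWSR1::FLI1 high libraries, and between 304 and 378 in EWSR1::FLI1 low libraries. It was the highest of the 7 genes in all 6 libraries.

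CAV2 encodes caveolin 2, which forms hetero-oligomers with caveolin 1 and depends on it to reach the plasma membrane. Its main transcript of 3 exons starts at 116139792 on the plus strand of chromosome 7 (gene ENSG00000105971, 115927434 to 116148595, GRCh37). The end of CAV2 is 16.5 kb upstream of the start of CAV1. CAV2 was at 114, 111 and 103.3 FPKM without doxycycline and at 29.5, 41.7 and 50.0 FPKM with it. The groups were far apart, with the EWSR1::FLI1 high libraries close together. The means were 109 ± 5.33 and 40.4 ± 10.3 FPKM (SD, n = 3 in each group), a 2.70-fold decrease. In limma this gave -1.44 on the log2 scale (standard error 0.22), at an adjusted p of 0.00261. Leaving out EWSR1::FLI1 low replicate 1 gave -1.24 (limma, adjusted p = 0.000587). The adjusted p of CAV2 (limma) exceeded 0.01 when an EWSR1::FLI1 high library was left out, at 0.0154, 0.022 and 0.0168 without replicates 1, 2 and 3.

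The 250 bases before the start of the main transcript were searched for GGAA on both strands, overlapping matches counted. The windows are shown for the caveolins that fell together and for the cavin that rose, with every GGAA or TTCC in capitals. CAV1 (chr7:116164840-116165047, plus strand) is cut where another annotated transcript of the gene begins, CAV2 is chr7:116139542-116139791 on the plus strand, and PTRF is chr17:40575275-40575524 read on the minus strand, all in GRCh37.
CAV1: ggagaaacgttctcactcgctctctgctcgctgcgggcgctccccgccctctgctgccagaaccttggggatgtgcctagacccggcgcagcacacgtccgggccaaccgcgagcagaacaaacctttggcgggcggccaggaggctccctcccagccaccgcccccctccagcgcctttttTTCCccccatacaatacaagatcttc
CAV2: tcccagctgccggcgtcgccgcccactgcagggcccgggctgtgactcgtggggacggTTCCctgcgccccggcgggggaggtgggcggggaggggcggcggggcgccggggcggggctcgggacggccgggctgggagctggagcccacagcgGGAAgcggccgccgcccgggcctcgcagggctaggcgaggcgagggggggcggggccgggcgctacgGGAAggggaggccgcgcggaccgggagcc
PTRF: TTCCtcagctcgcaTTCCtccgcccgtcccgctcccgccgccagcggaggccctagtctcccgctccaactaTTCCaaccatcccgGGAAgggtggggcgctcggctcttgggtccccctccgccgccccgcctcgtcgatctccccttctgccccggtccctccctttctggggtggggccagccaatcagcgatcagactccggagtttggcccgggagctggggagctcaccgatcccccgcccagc
In the full 250 bases, CAV1 had 5 matches, CAV2 had 3, PTRF had 4, SDPR had 6, EHD2 and PRKCDBP had 3 each, and CAV3 had 2. The median over such windows of 19881 protein-coding genes in the GENCODE annotation of GRCh37 was 3, and 91.9% of them held at least 1 match. The part of the CAV1 window shown above holds 1 of its 5 matches. The longer match GGAAGGAA, which overlaps the shorter one, was found in the 250-base window of CAV1 and in 3.01% of all windows, but not in the other 6 windows. In CAV1 it lies across the point of the cut, so it reaches into the other annotated transcript. The match CCGGAAGT, a high-affinity ETS site, was found in 5.12% of all windows and in 0 of these 7. Runs of at least 4 GGAA in a row were counted within 100 kb of the start. CAV1 and CAV2 had 8 each, PRKCDBP 3, EHD2 2, CAV3 1, and PTRF and SDPR 0, against a median of 1 over all genes. The 8 runs of CAV2 are the same as the 8 of CAV1, whose starts lie 25.3 kb apart, so they count once. Between CAV2 and CAV1 lie 3 runs of 4, 16 and 8 units (chr7:116163121-116163290), the nearest 1.815 kb upstream of CAV1. A run of at least 16 units within 5 kb upstream was found for 0.0956% of all genes. Whether EWSR1::FLI1 binds these runs was not tested.

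PTRF encodes cavin 1, the coat protein without which caveolae do not form. The gene (ENSG00000177469, chromosome 17, 40554467 to 40575274, minus strand, GRCh37) stood at 6.27, 8.60 and 13.1 FPKM without doxycycline. With doxycycline it was at 20.7, 61.9 and 50.7 FPKM. Every EWSR1::FLI1 low library was above every EWSR1::FLI1 high library, but replicate 1 was closer to the untreated libraries than replicates 2 and 3 were. The means were 9.32 ± 3.48 and 44.4 ± 21.3 FPKM (SD, n = 3 in each group), a 4.77-fold increase. A noncoding gene also overlaps PTRF on its own strand. With limma, PTRF changed by 2.06 on the log2 scale (standard error 0.40), and its adjusted p was 0.00874. Leaving out EWSR1::FLI1 low replicate 1 gave 2.52 (limma, adjusted p = 0.000664). The adjusted p of PTRF (limma) exceeded 0.01 when any one of the other 5 libraries was left out. It was 0.0307, 0.0434 and 0.0187 without EWSR1::FLI1 high replicates 1, 2 and 3, and 0.020 and 0.0358 without EWSR1::FLI1 low replicates 2 and 3. By FPKM, PTRF ranked between 5699 and 7699 among all symbols without doxycycline and between 1227 and 3015 with doxycycline.

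SDPR encodes cavin 2, a partner of cavin 1 that helps to bend the membrane. The gene (ENSG00000168497) spans 192699036 to 192711814 on the minus strand of chromosome 2. It had 0.498, 0.347 and 0.437 FPKM without doxycycline, from 17, 9 and 11 reads. With doxycycline it was at 1.35, 0.938 and 1.44 FPKM, from 39, 25 and 73 reads. The groups did not overlap, but SDPR was not called (log2 fold change 0.65, standard error 0.17, adjusted p = 0.0279, limma). It passed the filter of a mean of 0.5 FPKM only through the EWSR1::FLI1 low libraries, where it was higher. On the log2(FPKM + 1) scale changes of such low genes are understated, and a pseudocount of 0.1 gave 1.34 (limma, adjusted p = 0.0276) while limma-voom on the reads gave 1.51 (adjusted p = 0.0138). The ratio of the means was 2.91-fold. CAVIN2-AS1, a noncoding transcript, overlaps SDPR on the opposite strand, and whether strand was used in counting is not given in the sources used here. Noncoding genes overlap CAV1 and PRKCDBP on the opposite strand as well, so the same limit holds for them. Those over the CAV2 gene end by 116139519, before its main transcript starts at 116139792.

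PRKCDBP, which encodes cavin 3, was at the limit of detection. The gene (ENSG00000170955, chromosome 11, 6340176 to 6341762, minus strand) was listed at 0 in all 3 EWSR1::FLI1 high libraries and in EWSR1::FLI1 low replicate 2, and had 1 read each in EWSR1::FLI1 low replicates 1 and 3. A limit of 3 reads corresponded to 0.186 to 0.373 FPKM, so no difference could be seen at this depth. MURC encodes cavin 4, a cavin of muscle cells, and is not among the 7 genes. It was at 3.69, 3.12 and 3.17 FPKM without doxycycline and at 3.09, 4.61 and 2.47 FPKM with it, so the groups overlapped. Its log2 fold change was -0.01 (95% confidence interval -0.47 to 0.45, adjusted p = 0.986, limma). PTRF thus made up 59.9 to 78.4% of the summed FPKM of the 4 cavins without doxycycline and 82.0 to 92.7% with doxycycline.

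CAV3, the caveolin of muscle, was at the limit of detection. It was listed at 0 in EWSR1::FLI1 high replicate 3 and had 2 reads each in replicates 1 and 2, and it had 2, 1 and 8 reads in EWSR1::FLI1 low replicates 1, 2 and 3. The sums were 4 reads (95% Poisson interval 1.09 to 10.2) and 11 reads (95% Poisson interval 5.49 to 19.7), which covers counting error only and does not allow for the deeper EWSR1::FLI1 low replicate 3. The FPKM values overlapped (exact permutation test, two-sided, p = 0.5). CAV3 (ENSG00000182533, chromosome 3, 8775488 to 8883492, plus strand) overlaps SSUH2, OXTR and RAD18 on the opposite strand, so even these reads are uncertain without strand. Its main transcript ends at 8788444, and of these genes only SSUH2 overlaps that transcript.

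EHD2 had the largest fold increase between group means of the 5 tested genes. The gene (ENSG00000024422, chromosome 19, 48216679 to 48246391, plus strand, GRCh37) was at 0.665, 0.980 and 0.973 FPKM without doxycycline and at 4.64, 8.33 and 6.48 FPKM with it. The lowest EWSR1::FLI1 low library was above every untreated library by a wide margin. The means were 0.872 ± 0.18 and 6.49 ± 1.85 FPKM (SD, n = 3 in each group), a 7.44-fold increase. The log2 fold change on the log2(FPKM + 1) scale was 1.97 with a standard error of 0.21, and limma gave it an adjusted p of 0.000426. Leaving out EWSR1::FLI1 low replicate 1 gave 2.16 (limma, adjusted p = 0.000205). EHD2 was called under each of the 14 alternative fits, with an adjusted p (limma) of at most 0.00434. Between 25 and 28 reads per library lay on EHD2 without doxycycline and between 148 and 362 with doxycycline. A noncoding gene overlaps EHD2 on the same strand, and reads of the overlap could have been counted for either.

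**Figure D2:**
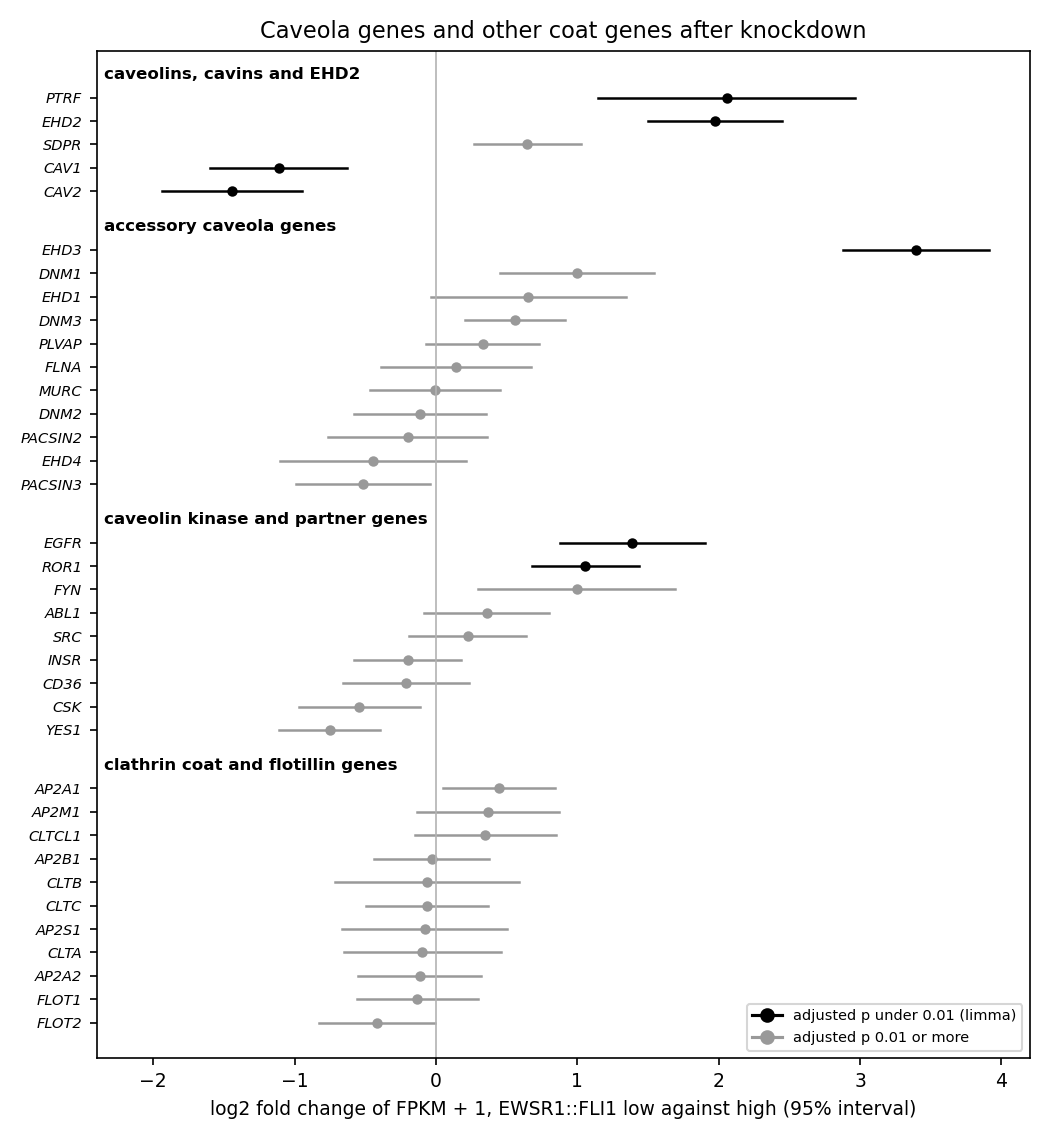
Log2 fold change of FPKM + 1 (EWSR1::FLI1 low against high) with its 95% confidence interval from limma for the tested genes of 4 groups, in black where the adjusted p was under 0.01 and in gray otherwise. CAV1 and CAV2 lie left of 0, PTRF, EHD2 and EHD3 lie right of 1, and the intervals of most clathrin coat and flotillin genes include 0.

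The other genes that shape or anchor caveolae were taken from a list of 12, of which 11 could be tested. Of these, 1 was called higher, 0 were called lower and 10 were not called, beside 7.88% called of all tested genes, and the median of their log2 fold changes was 0.14. The called gene was EHD3, an ATPase of the same family as EHD2 that acts on recycling endosomes. EHD3 was at 1.95, 1.90 and 1.82 FPKM without doxycycline and at 37.5, 20.5 and 32.9 FPKM with it. Its untreated libraries were nearly equal, and all 3 treated libraries were far above them (log2 fold change 3.40, adjusted p = 6.3e-05, limma). EHD1 overlapped between the groups in the 6 libraries (log2 fold change 0.65, adjusted p = 0.167, limma), but was called without EWSR1::FLI1 low replicate 1 (1.02, adjusted p = 0.00406). EHD4 was not called either (limma, log2 fold change -0.45, adjusted p = 0.319). Dynamins cut vesicles from the membrane. DNM2, the dynamin found in all tissues, was at 18.4 to 23.2 FPKM without and 14.9 to 21.8 FPKM with doxycycline, while DNM1 was at 0.216 to 0.352 and 0.805 to 2.49 FPKM and was not called (adjusted p = 0.0209, limma). DNM1 passed the filter only through the treated libraries, where it was higher. DNM1 was called with limma-voom on the reads (adjusted p = 0.00969) and without EWSR1::FLI1 low replicate 3 (adjusted p = 0.00852). PACSIN2, a membrane-bending protein of caveolae, and FLNA, the filamin that links caveolae to actin, overlapped between the groups, with log2 fold changes of -0.20 (95% confidence interval -0.76 to 0.36) and 0.14 (95% confidence interval -0.39 to 0.68). Without EWSR1::FLI1 low replicate 1 these were 0.05 and 0.38, neither of them called. FLNA was the most abundant gene of this list, at 48.1 to 85.1 FPKM over the 6 libraries.

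Since CAV1 fell and the coat and neck genes rose, their ratio within each library changed more than either gene did. There were 44.8, 32.8 and 23.7 times as many FPKM of CAV1 as of PTRF without doxycycline and 4.69, 2.53 and 3.11 times as many with it. The log2 ratio of PTRF to CAV1, taken on FPKM + 1, was -4.87 ± 0.41 without and -1.71 ± 0.43 with doxycycline (SD, n = 3 per group), a difference of 3.17. In the same way the log2 ratio of EHD2 to CAV1 was -7.29 ± 0.12 and -4.20 ± 0.18 (SD, n = 3 in each group), a difference of 3.09. EHD2 was below 1 FPKM in each untreated library, so the added 1 understates this difference more than that of PTRF. In plain FPKM the ratio of EHD2 to CAV1 was 0.00237 to 0.00348 without and 0.0411 to 0.0533 with doxycycline. The libraries of the groups did not overlap in either ratio. These ratios do not depend on how the libraries were scaled, apart from the added 1, and without EWSR1::FLI1 low replicate 1 the differences were 3.40 and 3.05.

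The caveolins also differed in the size of their decrease, but by much less. The ratio of CAV2 to CAV1 was 0.405, 0.394 and 0.333 without doxycycline and 0.304, 0.267 and 0.317 with it. Every treated library was below every untreated one, although EWSR1::FLI1 high replicate 3 and EWSR1::FLI1 low replicate 3 were close. On the log2 scale the ratio fell by 0.33, from -1.40 ± 0.15 to -1.73 ± 0.13 (SD, n = 3 in each group). The log2 ratio of SDPR to PTRF differed by -1.41, and by -0.82 with a pseudocount of 0.1. The groups overlapped only through EWSR1::FLI1 low replicate 1, and without it the difference was -1.91. The log2 ratio of PRKCDBP to PTRF only restated the rise of PTRF, since PRKCDBP was at or near 0. In exact permutation tests over the libraries, two-sided, p was 0.1 for the ratios of PTRF, EHD2 and CAV2 to CAV1 and of PRKCDBP to PTRF, the smallest p that 3 samples against 3 allow, and 0.2 for SDPR to PTRF. After Benjamini-Hochberg adjustment over the 5 ratios these exact p-values were 0.125 and 0.2.

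**Figure D3:**
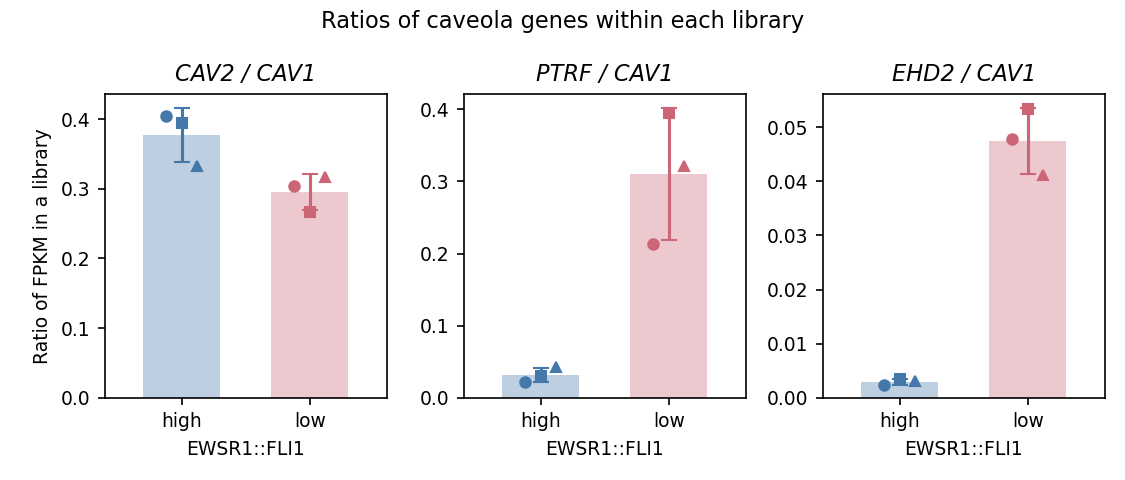
Ratios of FPKM of CAV2, PTRF and EHD2 to CAV1 within each library, with bars for group means, error bars for 1 SD (n = 3) and points for libraries (circle, square and triangle for replicates 1, 2 and 3). The ratio of PTRF to CAV1 is 0.0223 to 0.0422 in EWSR1::FLI1 high and 0.213 to 0.396 in EWSR1::FLI1 low libraries, while that of CAV2 to CAV1 changes little.

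Summed over the family, the caveolins were at 393 to 414 FPKM in EWSR1::FLI1 high libraries and at 127 to 208 FPKM in EWSR1::FLI1 low libraries. The 4 cavins summed to 10.5 to 16.7 FPKM and to 25.2 to 67.4 FPKM. Caveolin transcripts therefore outnumbered cavin transcripts per length in all 6 libraries, by 24.7 to 37.7 times without doxycycline and by 2.94 to 5.02 times with doxycycline. By group mean, the order of the 7 genes without doxycycline was CAV1, CAV2, PTRF, EHD2, SDPR, CAV3 and PRKCDBP. In this order only CAV3 and PRKCDBP overlapped with each other. With doxycycline, PTRF (20.7 to 61.9 FPKM) and CAV2 (29.5 to 50.0 FPKM) overlapped, so their order cannot be told, and CAV3 and PRKCDBP overlapped again. CAV1 stayed above them, and EHD2 and SDPR followed below without overlap.

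Proteins that phosphorylate caveolins or bind caveolins or cavins were taken from a list of 10, of which 9 could be tested, 2 were called higher, 0 were called lower and 7 were not called (median log2 fold change 0.22). Of all tested genes, 4.51% were called higher. ROR1, a receptor known to bind CAV1 and cavin 1, was at 1.79 to 2.39 FPKM without and 4.82 to 6.33 FPKM with doxycycline (log2 fold change 1.06, adjusted p = 0.00334, limma). EGFR, the epidermal growth factor receptor, was at 0.688 to 0.955 FPKM without and 2.64 to 5.66 FPKM with doxycycline (log2 fold change 1.39, adjusted p = 0.00382, limma). ROR1 and EGFR lost their call without any one of the 3 EWSR1::FLI1 high libraries or without EWSR1::FLI1 low replicate 3, with adjusted p-values (limma) of at most 0.0257 and 0.0232. Among the SRC family kinases, which phosphorylate caveolin 1 on tyrosine, YES1 was the most abundant. It was at 147, 164 and 154 FPKM without doxycycline and at 86.7, 92.9 and 95 FPKM with it, without overlap (log2 fold change -0.75, adjusted p = 0.012, limma). FYN was higher in each treated library, at 30.03 to 74.6 against 19.9 to 26.0 FPKM (log2 fold change 1.00, adjusted p = 0.0512, limma), and SRC overlapped (log2 fold change 0.22, adjusted p = 0.428). Without EWSR1::FLI1 low replicate 1, FYN and YES1 were also called, with adjusted p-values of 0.00349 and 0.0032 (limma), and YES1 was also called with limma-voom on the reads (0.00624).

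Clathrin is the coat of the other main endocytic pit, and flotillins form membrane domains without caveolins. None of the 11 clathrin, AP2 adaptor and flotillin genes was called with limma, 2 had an unadjusted p under 0.05, and limma-voom on the reads also called 0. With 7.88% of all tested genes called, a count of 0 in a list this short says little. Their log2 fold changes lay between -0.42 (FLOT2) and 0.45 (AP2A1), with a median of -0.06, and AP2M1 was called only with quantile normalization (log2 fold change 0.61, adjusted p = 0.00546), while without EWSR1::FLI1 low replicate 1 it was at 0.59 (adjusted p = 0.0156). CLTC, the clathrin heavy chain, was at 112 to 123.3 FPKM without and 91.7 to 135 FPKM with doxycycline (log2 fold change -0.06, 95% confidence interval -0.49 to 0.37, and 0.09 without EWSR1::FLI1 low replicate 1). The most abundant genes of this list were AP2M1, an adaptor subunit, at 136 to 174.5 FPKM without and 143 to 232 FPKM with doxycycline, and CLTA, a clathrin light chain, at 146 to 210 and 116 to 202 FPKM. CLTA was the higher of the pair in each untreated library and AP2M1 in each treated one.

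The genes beside the caveolin and PTRF loci were examined to see whether the change extended along the chromosome. Of 10 neighbours, 9 could be tested and 0 were called with limma or limma-voom, while 2 had an unadjusted p under 0.05. At the 7.88% called among all tested genes, 0 of 9 does not show whether the change extended along the chromosome. TES, on the other side of CAV2 from CAV1, was at 87.5 to 106 FPKM without and 99.2 to 136 FPKM with doxycycline, and CAPZA2 also overlapped. TFEC, further out beyond TES, was not called (limma, log2 fold change -0.85, adjusted p = 0.0517). MET, the hepatocyte growth factor receptor gene on the other side of CAV1, was higher in each treated library, at 3.02 to 11.6 against 1.48 to 2.73 FPKM (log2 fold change 1.39, adjusted p = 0.040, limma), opposite in sign to CAV1. Without EWSR1::FLI1 low replicate 1, MET was called (limma, 1.91 on the log2 scale, adjusted p = 0.000711). STAT3, beside PTRF, had a log2 fold change of 0.17 (95% confidence interval -0.26 to 0.61).

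Caveolae are most abundant in endothelial cells, adipocytes and muscle, so markers of these cells were examined beside the increase of PTRF and EHD2. In a bulk sample, more cells of a type and more RNA per cell cannot be told apart. The 5 endothelial markers summed to 1.02 to 1.54 FPKM without and 7.54 to 9.70 FPKM with doxycycline, and of the 2 that could be tested 1, KDR, was called higher. KDR made 5.20 to 8.37 FPKM in the treated libraries. PECAM1, the other tested marker, was at 0.278 to 0.366 and 0.879 to 1.56 FPKM, without overlap, and was not called (limma, adjusted p = 0.0333). Both passed the filter only through the treated libraries, where they were higher. CDH5, VWF and TEK stayed at or below 0.518 FPKM in every library. The 5 adipocyte markers summed to 4.28 to 6.19 and 25.8 to 39.8 FPKM, and of the 2 that could be tested 1, LPL (lipoprotein lipase), was called higher. LPL made 24.0 to 36.8 FPKM with doxycycline, while ADIPOQ and PLIN1 stayed at or below 0.342 FPKM. CIDEC, with 14 reads in all without and 21 with doxycycline, overlapped between the groups. FABP4, the other tested marker, had 3 reads in all without and 50 reads with doxycycline, and its groups overlapped. It was not called (limma, adjusted p = 0.061) except without EWSR1::FLI1 low replicate 1 (adjusted p = 0.000649), and it passed the filter only through the treated libraries. The 5 muscle markers summed to 0.449 to 0.649 and 1.02 to 1.86 FPKM, 0 could be tested, and MYOD1 had at most 1 read per library. DES had 10 reads in all without and 43 with doxycycline, and ACTA1 had 4 and 21 reads, and the FPKM of both were higher in each treated library. The untreated libraries had only 1, 1 and 2 reads of ACTA1, below the limit of 3 reads. MYOG (5 and 7 reads) and CKM (4 and 6 reads) overlapped between the groups. The samples were all cultures of the A673/TR/shEF line, and the part of other cell types in these results was not tested beyond these levels.

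The genes with the profile most like that of CAV1 over the 6 libraries were found by the root mean square difference of log2(FPKM + 1) after centring each gene on its own mean. For CAV1 these were FKBP4 (0.037), LIN7C (0.0466), MYEF2 (0.0473), NUP88 (0.0479) and BCAS4 (0.0578), against a median difference of 0.612 over all tested genes. FKBP4, a co-chaperone of HSP90, was at 66.7, 68.7 and 75.1 FPKM without doxycycline and at 21.6, 38.3 and 36.9 FPKM with it. For PTRF the nearest genes included PDCD1LG2 (0.11), S100A2 (0.145), RNASET2 (0.189) and SEMA3C (0.223), against a median of 1.2. Genes picked as nearest lie below the median by the way they were picked. The distances therefore do not show a likeness particular to CAV1 or PTRF. PDCD1LG2, which encodes the checkpoint ligand PD-L2, was at 1.3, 1.87 and 2.83 FPKM without doxycycline and at 4.88, 19.5 and 13.1 FPKM with it. In all 4 of these profiles, EWSR1::FLI1 low replicate 1 had the lowest value of its group, the library whose FPKM values summed lowest.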

How the data were processed

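RNA of 3 EWSR1::FLI1 high and 3 EWSR1::FLI1 low A673/TR/shEF samples was sequenced as ScriptSeq v2 libraries depleted of ribosomal RNA. The authors mapped the reads with STAR (version 2.5.0b) to GRCh37 and name Cufflinks (version 2.2.1) for abundance, and the annotation used is not given in the sources used here. What the authors deposited were FPKM for each symbol in each library, already scaled between libraries, and a table of their comparison, of which only the mean signal (mean normalized counts over the 6 libraries) was used. Its fold changes and p-values were not used. Within a gene, FPKM were scaled to that mean, and 100% of the values above 0 were then whole multiples of 1 read (within 0.1 reads), which gave the reads per gene and the limit of 3 reads. Intervals cover counting error only.

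Genes with a mean of at least 0.5 FPKM were compared with limma (version 3.58.1, R 4.3.3, trended eBayes) on log2(FPKM + 1), without the replicate number, with Benjamini-Hochberg adjusted p-values (15504 genes) and a limit of 0.01, after a test on simulated data. This log2 scale understates changes of low genes. The median log2 fold change of all genes was -0.05. Ratios were compared with exact permutation tests. The genes named are the 7 members, genes of the lists that were called, most abundant or needed for a statement on a list, FLI1, and the 5 profiles nearest to CAV1 and to PTRF. Of these, 1 profile is not reported here. The members and lists were chosen with earlier results of these data known. Alternatives were pseudocount 0.1, no filter, a minimum of 1 FPKM, quantile normalization, median-ratio scaling, a replicate block, limma-voom on the reads, no eBayes trend, a limit of 0.05, and leaving out each library. Sequences and positions came from GRCh37 with GENCODE annotation lifted to it. Other steps used Python 3.11.15 (scipy 1.17.1, pandas 2.3.3).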

Additional observations from a re-analysis of the deposited data

How the results depend on the processing

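All 5 tested caveolin, cavin and EHD2 genes kept their direction under every alternative fit that held them (SDPR was below the minimum of 1 FPKM), and 4 remained called under all alternatives except no filter (2 called) and leaving out 1 library (1 to 4 called). Without a filter, CAV1 (adjusted p = 0.0239) and PTRF (0.0211) lost their calls with limma. At a limit of 0.05, 5 were called. Of all genes, 753 were called without a filter, 1992 with quantile normalization, 3067 at a limit of 0.05, and 444 to 2178 when 1 library was left out, against 1222. The higher share of calls was 57.3% and 49.8% with quantile normalization, and it ranged from 37.7% (without EWSR1::FLI1 low replicate 3) to 67.4% (without EWSR1::FLI1 high replicate 3) with 1 library left out. Of the accessory caveola genes, 2 were called with limma-voom on the recovered reads, 3 at a limit of 0.05, and 1 to 2 with 1 library left out. Of the clathrin coat and flotillin genes, 1 was called with quantile normalization. Of the kinase and partner genes, 0 were called without a filter and 0 to 4 with 1 library left out. Of the locus neighbours, 1 (MET) was called at a limit of 0.05, and 0 to 1 with 1 library left out. Deviations of libraries with equal replicate numbers correlated with r = 0.27, 0.09 and 0.12 for replicates 1, 2 and 3. With unequal numbers r was -0.29, -0.05, -0.01, -0.09, -0.24 and 0.19. Whether the numbers pair the samples was not settled, and the main fit did not use them. With the replicate block, 1702 genes, 4 of the 5 tested members and 1 locus neighbour (MET, adjusted p = 0.00463, limma) were called. The 5 ratios kept their sign under every alternative, with exact p of at least 0.1, and with the block the smallest p possible was 0.25. Where a setting changed a call, the cause was not tested. Depth limits PRKCDBP, CAV3 and SDPR.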
